A study of Mus musculus with 2 samples.

Results

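The genes described here were listed as thrombospondins and other secreted inhibitors of blood vessel growth. They are the thrombospondins Thbs1, Thbs2, Thbs3 and Thbs4, Serpinf1 (pigment epithelium-derived factor), the metalloprotease Adamts1, the vasohibin Vash1 and the class 3 semaphorins Sema3a and Sema3f. The 9 symbols were taken as a fixed list from the 12393 genes that the platform annotation names with 1 symbol per probe set, and every probe set annotated to such a symbol alone was used. Of the 9 genes, 8 had at least 1 such probe set, 14 probe sets in all, and Vash1 had 0. RNA came from LM8, an osteosarcoma line of the mouse that spreads to the lung, in the form of 2 stable transfectant clones. The hPHD4 clone carried full-length human PHD4 cDNA in pcDNA3.1, the control clone carried pcDNA3.1 alone, and both had been selected in G418 at 0.5 mg/ml. PHD4 is a prolyl hydroxylase of the endoplasmic reticulum membrane, a relative of the oxygen-dependent hydroxylases that tag hypoxia-inducible factors (HIF) for degradation. Each group was 1 clone on 1 Affymetrix array, so the effect of the transgene and the difference between any 2 clones cannot be told apart. No difference below has a replicate check or a test.

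Thrombospondins are large calcium-binding glycoproteins of the extracellular matrix. Thbs1 and Thbs2 form trimers and carry type 1 repeats, through which they bind CD36 on endothelial cells and restrain their migration and survival. Thbs3 and Thbs4 form pentamers and lack those repeats. They are called inhibitor genes below only as members of the list. PEDF is a serpin without protease-inhibiting activity that acts on endothelial cells and neurons. Adamts1 cleaves proteoglycans and also carries thrombospondin type 1 repeats, Vash1 is a tubulin carboxypeptidase made mainly by endothelial cells, and class 3 semaphorins signal through neuropilins and plexins.

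Of the genes that could be measured in both clones, most were lower in the hPHD4 clone, and Thbs2 lay far below the others. A probe set counted as measured when its signal lay above the 40th percentile of each array, a floor at a linear signal of 67.8 in the control clone and of 81.1 in the hPHD4 clone. Thbs1, Thbs2, Thbs3, Serpinf1, Adamts1 and Sema3a passed it on 10 probe sets, and Thbs4 and Sema3f did not. Of these 6 genes, 4 were lower in the hPHD4 clone by at least 1.5-fold (Thbs2, Serpinf1, Adamts1 and Thbs3), against 5.22% of all 7452 measured genes. None was at least 1.5-fold higher, against 8.94% of all measured genes. After quantile normalization those background shares were 6.43% and 6.66%. The genes were listed with earlier results of these arrays known, so the count describes them and supports nothing further. Their median log2 ratio, hPHD4 clone over control clone, was −0.65, and that of all measured genes was 0.03. Thbs2 alone was at least 2-fold lower, a size reached by 0.98% of all measured genes.

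**Figure D1:**
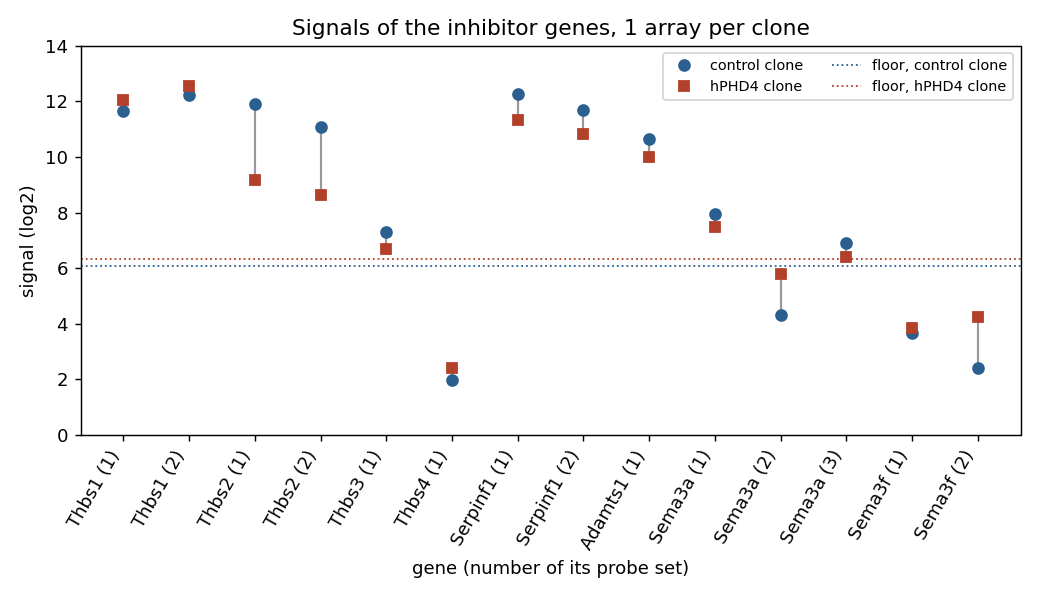
Log2 signal (vertical axis) of each of the 14 probe sets of the inhibitor genes in the control clone (circles) and the hPHD4 clone (squares), 1 array each, with the floor of each array as a dotted line. Both Thbs2 probe sets drop by more than 2 log2 units, both Serpinf1 probe sets by nearly 1 unit, and the probe sets of Thbs4 and Sema3f lie under the floors.

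Promoter sequences of the 4 lower genes are shown because these genes lay on the same side, and because PHD enzymes act on HIF. HIF binds DNA around the core RCGTG, where R is A or G. Only the form ACGTG was searched, so the GCGTG in the Adamts1 window is not marked. They are RefSeq promoters of build GRCm38.p6, from 250 bases before to 50 bases after the gene's start, written 5′ to 3′ on the gene's strand. Capitals mark matches, on either strand, to ACGTG, to the GC box GGGCGG or to the AP-1 site TGACTCA. None of the 3 contains another, but ACGTG also lies within the E-box CACGTG. The windows were chr17:14694213-14694512 (minus strand) for Thbs2, chr11:75422574-75422873 (minus strand) for Serpinf1, chr16:85803064-85803363 (minus strand) for Adamts1 and chr3:89214930-89215229 (plus strand) for Thbs3.
Thbs2: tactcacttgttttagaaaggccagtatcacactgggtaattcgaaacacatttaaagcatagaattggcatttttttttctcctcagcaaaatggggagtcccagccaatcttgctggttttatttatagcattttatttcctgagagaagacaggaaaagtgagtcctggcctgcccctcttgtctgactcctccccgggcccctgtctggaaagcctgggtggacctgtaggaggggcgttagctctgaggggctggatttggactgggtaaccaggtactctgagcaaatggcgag
Serpinf1: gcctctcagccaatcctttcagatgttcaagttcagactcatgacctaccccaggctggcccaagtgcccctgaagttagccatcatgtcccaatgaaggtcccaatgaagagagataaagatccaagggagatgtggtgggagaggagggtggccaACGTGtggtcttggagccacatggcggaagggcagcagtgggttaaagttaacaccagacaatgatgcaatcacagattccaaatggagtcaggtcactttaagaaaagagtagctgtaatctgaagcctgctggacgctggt
Adamts1: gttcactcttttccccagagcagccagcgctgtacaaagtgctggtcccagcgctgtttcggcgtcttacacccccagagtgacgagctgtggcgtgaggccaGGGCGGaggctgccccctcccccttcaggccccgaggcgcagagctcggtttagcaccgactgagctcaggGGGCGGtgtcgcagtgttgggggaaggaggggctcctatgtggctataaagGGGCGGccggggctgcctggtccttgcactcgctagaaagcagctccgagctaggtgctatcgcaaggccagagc
Thbs3: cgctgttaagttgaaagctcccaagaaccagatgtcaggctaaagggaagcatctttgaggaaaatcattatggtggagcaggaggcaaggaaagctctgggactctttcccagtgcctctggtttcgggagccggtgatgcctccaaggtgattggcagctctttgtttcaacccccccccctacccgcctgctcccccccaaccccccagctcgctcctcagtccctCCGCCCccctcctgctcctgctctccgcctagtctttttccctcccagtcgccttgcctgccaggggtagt

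None of the 3 motifs was found in all 4 promoters. The Thbs2 window held none of the 3 and had a GC content of 48.3%. Serpinf1 held ACGTG once, starting 93 bases before the gene's start. Adamts1 held the GC box 3 times, starting 147, 76 and 25 bases before the start, and Thbs3 held it once, on the opposite strand. Among 32851 mouse promoters of the same length, 19.6% held ACGTG, 35.7% the GC box and 5.20% the AP-1 site. Promoters were listed for 7 of the 9 genes, and of these 1 held ACGTG, 4 the GC box and 0 the AP-1 site. A match is only a run of letters and says nothing of binding in these cells.

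Thbs1 and Thbs2, the trimeric thrombospondins, lay on opposite sides. One probe set of Thbs2 had a linear signal of 3818 in the control clone and 582.5 in the hPHD4 clone. The other had 2157 in the control clone and 399.6 in the hPHD4 clone. Both probe sets were thus well above the floor in both clones and showed the same direction. Their folds were 6.55 and 5.40, and the gene's log2 ratio was −2.57 (5.95-fold lower). The SD between these 2 probe sets was 0.20, and the pooled SD between probe sets of one gene, over genes of like brightness, was 0.28. This SD holds probe set error only; variation of cultures, clones and arrays is not in it. Thbs2 had the fourth lowest ratio of the 7452 measured genes.

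Thbs1 had 2 probe sets annotated to it alone. One had a linear signal of 3230 in the control clone and 4204 in the hPHD4 clone, and the other had 4800 and 6011. The log2 ratio was 0.35 (1.28-fold higher), with both probe sets above 0, at 0.38 and 0.32. A further probe set, annotated to both Thbs1 and Pald1 and so left out of the gene's value, had linear signals of 4933 in the control clone and 4615 in the hPHD4 clone, a log2 ratio of −0.10. The direction of Thbs1 was therefore not shared by all probe sets that carry its symbol, and its ratio was 1.27 times the SD of 0.28. Thbs1 and Thbs2 differ in the data by more than either differs between its own probe sets.

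Of the pentameric thrombospondins, Thbs3 was close to the floor and Thbs4 was under it. Thbs3 was read from 1 probe set, with a linear signal of 156.2 in the control clone and 102.0 in the hPHD4 clone. Its log2 ratio was −0.62 (1.53-fold lower), just past the 1.5-fold limit, and the SD between probe sets of genes as dim as this was 0.40. Thbs4 had linear signals of 3.96 and 5.27 and gets no fold. Comp, the fifth thrombospondin and a cartilage matrix protein, had linear signals of 42.8 in the control clone and 95.3 in the hPHD4 clone, above the floor in the hPHD4 clone only. Among the 5 family members, only Thbs1, Thbs2 and Thbs3 were measured in both clones. Thbs2 and Thbs3 fell past the 1.5-fold limit, a drop reached by 5.22% of all measured genes, and Thbs1 did not. Thbs4 and Comp cannot be counted either way, and Thbs3 rests on 1 dim probe set.

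Serpinf1 and Adamts1 were lower on bright probe sets. The first Serpinf1 probe set had a linear signal of 4912 in the control clone and 2598 in the hPHD4 clone. The second had 3332 and 1809. The gene's log2 ratio was −0.90 (1.87-fold lower), with an SD between its probe sets of 0.03 against 0.28 for genes of like brightness. Thbs2 and Serpinf1 were thus 2 of the 4 listed genes with at least 2 measured probe sets that were at least 1.5-fold lower on each of them. Among 2800 measured genes with at least 2 such probe sets, 1.14% were. Adamts1 had 1 probe set, with a linear signal of 1623 in the control clone and 1015 in the hPHD4 clone. Its log2 ratio was −0.68 (1.60-fold lower), 2.44 times the SD of 0.28.

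The semaphorins were dim. Sema3a had linear signals of 244.9 in the control clone and 179.0 in the hPHD4 clone on one probe set, and 118.3 and 85.1 on another, the last value just above the floor of 81.1. Its log2 ratio was −0.46 (1.38-fold lower), short of the 1.5-fold limit, with an SD for genes of like brightness of 0.40. Another Sema3a probe set, at 19.9 in the control clone and 55.2 in the hPHD4 clone, lay under both floors and pointed the opposite way. With a floor at the 20th percentile it entered, and the ratio of Sema3a became 0.18. Sema3f had linear signals of 12.7 and 5.22 in the control clone and 14.5 and 18.7 in the hPHD4 clone, all under the floor. For Vash1, with no probe set of its own, no level can be given. Its relative Vash2 had a log2 ratio of −0.13, and Svbp, the small protein that binds and stabilises vasohibins, of −0.28.

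**Figure D2:**
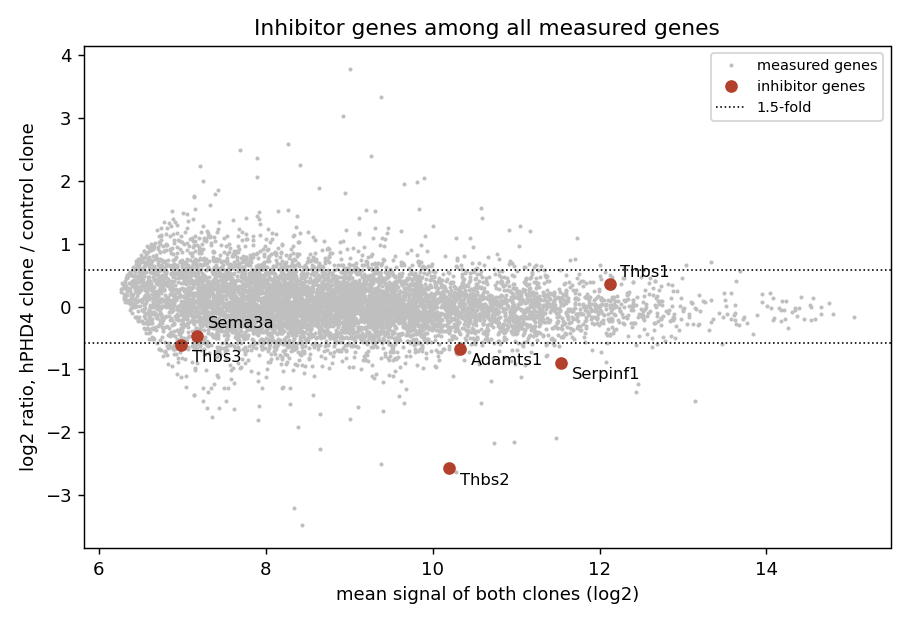
Log2 ratio, hPHD4 clone over control clone (vertical axis), against mean log2 signal of both clones (horizontal axis) for all 7452 measured genes (grey) and the 6 measured inhibitor genes (red), with dotted lines at 1.5-fold. Thbs2 stands apart at −2.57, Serpinf1 and Adamts1 lie below the band at high brightness, and Thbs3 and Sema3a lie among the dim genes, where the spread is wide.

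The measured genes nearest to Thbs2 in log2 ratio over the 2 arrays were Lum (−2.62), Prelp (−2.50), Mgp (−2.26) and Slpi (−2.17). Lumican and Prelp are leucine-rich proteoglycans of the matrix, Mgp is a calcification inhibitor and Slpi a protease inhibitor. With 2 arrays this likeness is a similar size of difference and no more.

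The inhibitor genes lie on separate chromosomes. None of their close neighbours was lower to the 1.5-fold limit, a size reached by 5.22% of all measured genes. For each measured gene, the 5 nearest measured genes on either side were taken in the gene order of GRCm38.p6. The 10 neighbours of Thbs2 had log2 ratios from −0.41 to 0.16, with a median of −0.29. The median of all 373 measured genes of its chromosome, 17, was −0.17, and Thbs2 was the lowest of them. Around Serpinf1 the neighbours ranged from −0.38 to 0.95, around Adamts1 from −0.37 to 0.96 and around Thbs3 from −0.35 to 0.63. The highest of these, Ovca2, Jam2 and Efna3, were past 1.5-fold higher, as were 8.94% of all measured genes. Adamts5, the proteoglycan-degrading relative that lies next to Adamts1, had a ratio of −0.11, although its 2 probe sets were at −0.43 and 0.21. The neighbours were examined after the values of the genes were known.

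**Figure D3:**
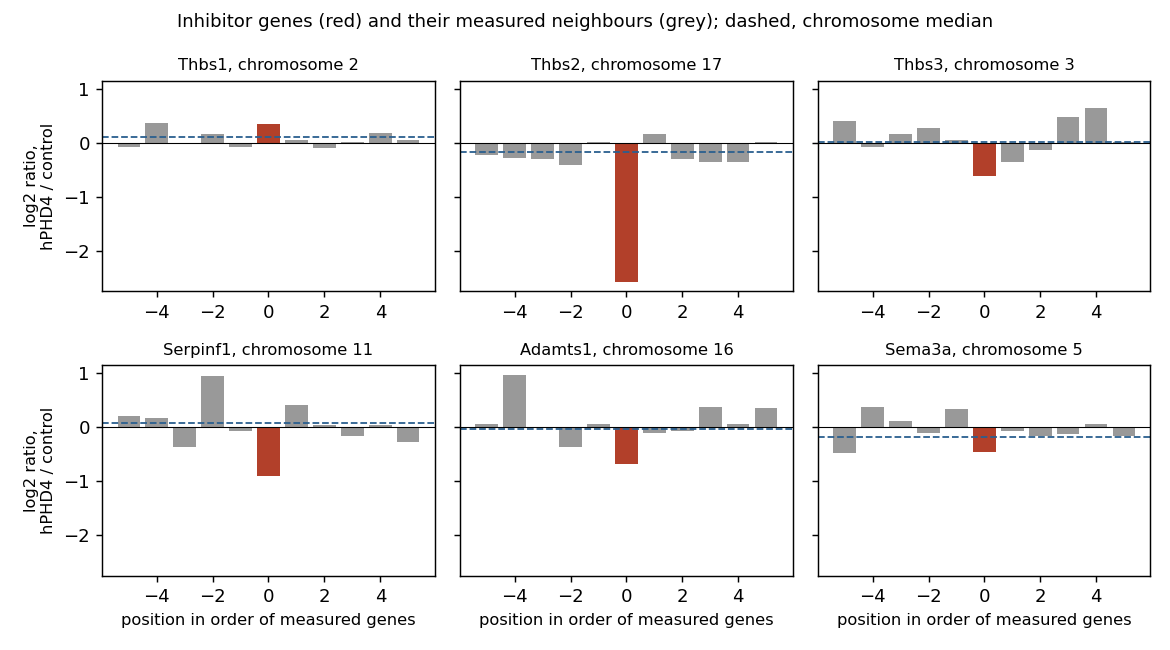
Log2 ratio, hPHD4 clone over control clone (vertical axis), of each measured inhibitor gene (red bar) and its 5 measured neighbours on either side (grey bars), in gene order (horizontal axis), with the median of the chromosome dashed. In all 6 panels no neighbour reaches 1.5-fold lower, as 5.22% of all measured genes do, and the bar of Thbs2 is the longest. Ovca2, Jam2 and Efna3 pass 1.5-fold higher.

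Receptors of thrombospondins and PEDF differed little, with 1 exception. Of the 14 thrombospondin receptors and binding partners, all with a probe set, 9 were measured, with a median log2 ratio of −0.01. In either direction 0 of the 9 were past 1.5-fold, against 5.22% of all measured genes lower and 8.94% higher. Cd47, the receptor of the thrombospondin carboxy-terminal domain, was the highest at 0.55, with its 3 measured probe sets at 0.09, 0.76 and 0.80. Read from its brightest probe set alone, Cd47 passed 1.5-fold. The integrin genes Itgb1 and Itgav lay at −0.04 and −0.01. Cd36, the scavenger receptor that binds the type 1 repeats, had linear signals between 1.16 and 23.6 over 3 probe sets and both clones, all under the floor. Of 6 Serpinf1 receptors 4 were measured. Pnpla2, the lipase that also binds PEDF, was 8.12-fold higher in the hPHD4 clone on its measured probe set, with linear signals of 171.0 in the control clone and 1389 in the hPHD4 clone. Its other probe set, at 46.3 and 37.4, lay under the floor with a ratio of −0.31, and a floor at the 20th percentile gave Pnpla2 a log2 ratio of 1.36 in place of 3.02. The co-receptor Lrp6 and the laminin receptor Rpsa lay at −0.01 and −0.02. Plxdc1 and Plxdc2 were under the floor.

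Of 7 measured semaphorin receptors 6 had a log2 ratio above 0, as did 53.6% of all measured genes. Their median was 0.39, 2 of 7 were at least 1.5-fold higher and 0 lower, against 8.94% and 5.22% of all measured genes. After quantile normalization or loess correction 1 receptor gene was lower by that much. Nrp1, the neuropilin that binds Sema3a and is also a VEGF co-receptor, was 1.77-fold higher, with its 3 probe sets at log2 ratios of 0.83, 0.57 and 1.07. Linear signals of Nrp1 were 172.6, 764.4 and 88.9 in the control clone and 307.3, 1138 and 186.4 in the hPHD4 clone. Every probe set of Nrp1 was thus higher in the hPHD4 clone, the brightest of them by just under 1.5-fold. Plxna3, a plexin that pairs with neuropilins, was 2.16-fold higher on 1 measured probe set, with linear signals of 126.3 in the control clone and 273.1 in the hPHD4 clone. Nrp2, the preferred neuropilin of Sema3f, lay at 0.17, and Plxnd1 at 0.47. A floor at the 60th percentile left 0 receptor genes past 1.5-fold higher. Of the other class 3 semaphorins only Sema3b was measured, at 0.15, with its 2 measured probe sets at −0.55 and 0.85.

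Of 23 relatives of Adamts1, 8 had a probe set and 4 of these were measured, with a median of 0.45. Adamts4, another aggrecanase, was 1.98-fold higher in the hPHD4 clone on 1 probe set, with linear signals of 100.3 in the control clone and 198.3 in the hPHD4 clone; with its dim probe set kept at a common floor the log2 ratio was 0.49. Adamts1 was thus the only measured gene of the family past 1.5-fold lower. Of 8 Adamts1 substrates only the syndecan gene Sdc4 was measured, at 0.33. Aggrecan (Acan) and Nid1 were under the floor in both clones. Vcan, encoding versican, was above the floor in the hPHD4 clone only, on 2 of its 3 probe sets, with linear signals of 151.5 and 91.4 there and 34.2 and 20.7 in the control clone. Nid2 was above it in the control clone only, at 82.3 against 67.7 in the hPHD4 clone.

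The list of other secreted inhibitors did not share the low median of the listed genes. It also holds Isl1, which encodes a transcription factor and not a secreted protein. Isl1 was under the floor in both clones. Of 28 genes 10 were measured, with a median of −0.01. Of these 10, 2 were at least 1.5-fold lower and 1 higher, against 5.22% and 8.94% of all measured genes. Igfbp7, a secreted protein that binds insulin-like growth factors, was 2.17-fold lower on its bright probe set, with linear signals of 3147 in the control clone and 1451 in the hPHD4 clone. Its log2 ratio was −0.17 under a floor at the 20th percentile, where dim probe sets entered, and −0.37 with them kept at a common floor. The metalloproteinase inhibitor Timp2 was lower on all 5 measured probe sets, from −0.46 to −0.76, with a mean of −0.60 (−0.50 with dim probe sets kept at a common floor). Col4a1, the precursor of the inhibitory fragment arresten, was higher at 0.67, and its 2 probe sets were at 0.68 and 0.66, but no gene of this group was 1.5-fold higher after quantile normalization or loess correction. Col18a1, the precursor of endostatin, lay at −0.17, and Sparc at −0.20. A floor at the 20th percentile, with Isl1 left in the list, gave this group a median of 0.43, and 6 genes were at least 1.5-fold higher. Under that floor 16.4% of all 9613 measured genes were higher by that much.

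Genes whose products thrombospondins 1 and 2 bind or regulate had a median of −0.25 over 10 measured genes. Among these, 2 were at least 1.5-fold lower and 0 higher, against 5.22% and 8.94% of all measured genes. Dcn, the small proteoglycan decorin, had linear signals of 955.6 in the control clone and 277.7 in the hPHD4 clone, 3.44-fold lower. Lox, the enzyme that cross-links collagen and elastin, was 1.52-fold lower, with 2 measured probe sets at −0.65 and −0.55. Lox fell short of 1.5-fold after quantile normalization (−0.52) and loess correction (−0.54), and lay at −0.25 under a floor at the 20th percentile, where a dim probe set entered, and at −0.40 with dim probe sets kept at a common floor. Mmp2, the gelatinase that Thbs2 helps to clear, lay at −0.47, but its 2 probe sets disagreed, at −0.95 and 0.01. Tgfb1, whose latent form Thbs1 can activate, lay at 0.33. The 12 measured regulators of thrombospondin transcription had a median of 0.08. Among them 1 was at least 1.5-fold lower and 2 were higher, against the same shares of 5.22% and 8.94%. Sp1, a factor that binds GC boxes, was 1.96-fold lower. Its linear signals were 519.2 and 161.5 in the control clone and 262.3 and 83.4 in the hPHD4 clone. Both Sp1 probe sets were lower. The immediate early factor Egr1 was 1.83-fold higher and Smad3 1.67-fold higher, both from dim probe sets, and only 1 gene of this group was past 1.5-fold higher after quantile normalization. Id1, a repressor of Thbs1, lay at 0.56 and Myc at −0.25.

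Few other proteins with type 1 repeats could be measured. Of 21 genes with a probe set 4 were, 3 of them above 0, with a median of 0.66. Of the 4, 2 were at least 1.5-fold higher and 0 lower, against 8.94% and 5.22% of all measured genes. Ccn2, connective tissue growth factor, was 2.14-fold higher, with linear signals of 258.5 in the control clone and 554.3 in the hPHD4 clone. Unc5b, a netrin receptor of endothelial cells and neurons, was 1.81-fold higher. Ccn1 lay at −0.25 and Ccn4 at 0.46. A floor at the 20th percentile put 6 genes of this group past 1.5-fold higher, against 16.4% of all genes measured under that floor. With dim probe sets kept at a common floor the group's median was 0.00. Within these lists, the genes named with ratios inside the 1.5-fold limits were picked after their values were seen.

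**Figure D4:**
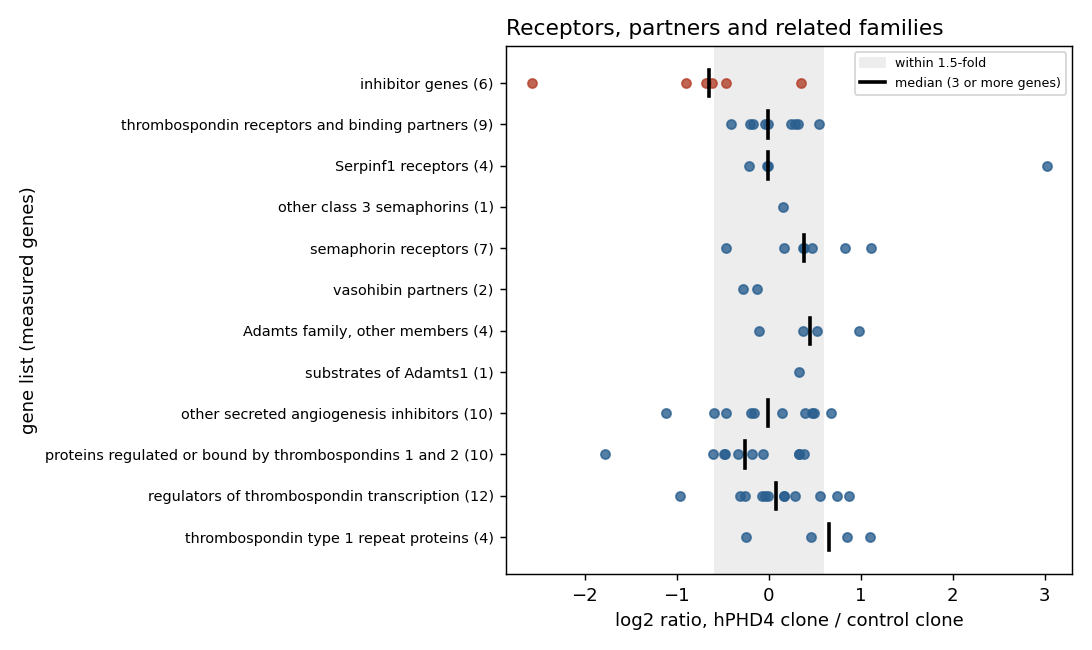
Log2 ratio, hPHD4 clone over control clone (horizontal axis), of each measured gene (points) in the inhibitor list (red) and in lists of receptors, partners and related families (blue), with the number of measured genes in brackets, medians as black bars and the 1.5-fold band in grey. The red points centre at −0.65, while thrombospondin receptors centre at −0.01 and semaphorin receptors at 0.39, and Pnpla2 is the point at 3.02.

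Markers were read to check the labelled cell type. Of 8 osteoblast markers with a probe set, 6 were measured. Ibsp, encoding bone sialoprotein, was the only one past 1.5-fold, at a log2 ratio of 1.09, with its 2 probe sets at 1.56 and 0.61. The others were Dlx5 (0.30), Sp7 (0.23), Alpl (0.21), Col1a1 (−0.11, from probe sets at −0.61 and 0.39) and Col1a2 (−0.43). Summed linear signals over the list, taking the brightest probe set per gene, were 37062 in the control clone and 31392 in the hPHD4 clone. Col1a2 made up the largest part of both sums, at 22636 and 17563. The median log2 ratio of the 6 measured markers was 0.22. Endothelial markers, of cells that make Vash1, were measured for 2 of 10 genes, Kdr at 0.07 and Vwf at −0.58. Pecam1 and Cdh5 were under the floor in both clones. Emcn and a probe set of Flt1 were above it in the hPHD4 clone only. Their linear signals were 97.7 and 120.9 there and 1.92 and 25.7 in the control clone. Summed signals of the endothelial list were 558.9 in the control clone and 764.3 in the hPHD4 clone. Such sums also count signals under the floor, here and in the lists that follow. Leukocyte markers were measured for 4 of 9 genes (sums 645.8 and 824.2), platelet markers for 2 of 5 (502.7 and 464.9) and epithelial markers for 0 of 6 (122.2 and 297.5). A probe set of the epithelial marker Krt8 was above the floor in the hPHD4 clone only, at 173.1 against 59.4 in the control clone. Smooth muscle and pericyte markers were measured for 3 of 7 genes, and their sum was 15762 in the control clone and 5902 in the hPHD4 clone. Nearly all of it was Acta2, which was 2.82-fold lower on 1 measured probe set. With its dim probe set kept at a common floor, the log2 ratio of Acta2 was −0.75. The other measured markers of this list, Des and Cspg4, lay at 0.42 and 0.16. Cnn1 was above the floor in the control clone only, with linear signals of 165.1 there and 22.0 in the hPHD4 clone. A probe set of Rgs5 was above it in the hPHD4 clone only, at 99.0 against 66.1 in the control clone. Acta2 moved in the direction of Thbs2, and its part in the result was not tested. In such bulk RNA, fewer cells of a type and less RNA per cell cannot be told apart. No probe set was annotated to P4htm alone, the mouse gene of PHD4, so the level of the mouse gene was not read. The transgene was human PHD4 cDNA, and its level was not followed either.

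**Figure D5:**
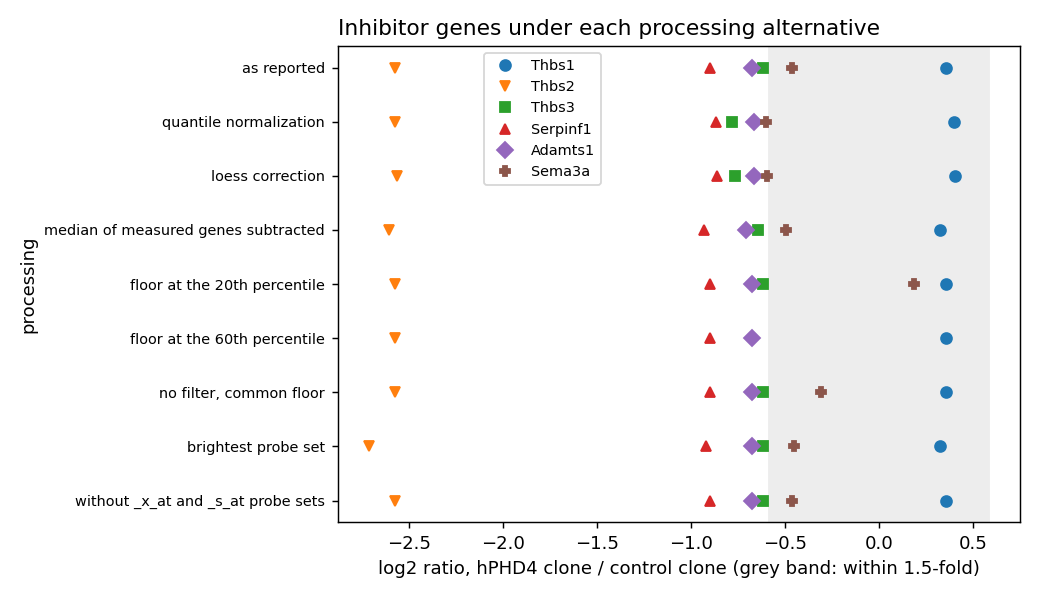
Log2 ratio, hPHD4 clone over control clone (horizontal axis), of the 6 measured inhibitor genes (markers) under the reported processing and 8 alternatives (vertical axis), with the 1.5-fold band in grey. Thbs2 stays between −2.71 and −2.56, Serpinf1 and Adamts1 stay below the band, and Sema3a changes side under a floor at the 20th percentile; a floor at the 60th percentile leaves Thbs3 and Sema3a without a value.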

How the data were processed

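Per the labels' protocols, 5 µg of total RNA went into each biotinylated target. The authors deposited 1 log2 signal for each probe set, and the submitters' processing notes name MAS5, with no version or settings. The log base and scaling were read from the values: as powers of 2, both arrays had a 2% trimmed mean of 500.2. Each array held 22690 probe sets, of which 64 controls, 691 with several symbols and 1555 with none were left out. Symbols came from the platform annotation, and a RefSeq table of GRCm38.p6 held the gene numbers of 20349 of the 20380 probe sets used.

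A gene's value was its mean log2 ratio, hPHD4 clone minus control clone, over probe sets above the 40th percentile on both arrays. No test was possible with 1 array per group, and the number of arrays limits the precision. The pooled SD between probe sets of one gene was 0.35 over 2800 genes. The listed genes, gene lists and thresholds were chosen with earlier results of these data known. Named genes were all listed genes, up to 5 genes per list past 1.5-fold, and the 4 genes nearest Thbs2; other list genes, neighbours and markers inside 1.5-fold were named after their values were seen. Protein sequences were not analysed here. The steps were tested on simulated data and run in Python 3.11.15 with pandas 2.3.3.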

Additional observations from a re-analysis of the deposited data

How the results depend on the processing

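No paired analysis was possible because each group holds 1 array. Over 8 alternatives to the scaling, floor, filter and probe sets, the log2 ratio of Thbs2 stayed between −2.71 and −2.56 and the median of the measured listed genes between −0.79 and −0.46. Between 4 and 8 listed genes had a value. Listed genes at least 1.5-fold lower numbered between 3 and 5, and those higher 0 in each. Of all genes with a value, between 3.06% and 6.64% were lower by that much and between 4.71% and 16.4% higher. Sema3a joined the lower genes after quantile normalization (−0.60) and loess correction (−0.60), and Thbs3 was lost under a floor at the 60th percentile. At a 2-fold threshold 1 gene was lower. A ratio or median was called moved when it changed by at least the pooled SD of 0.35. A count was called moved when it changed more than 1.5-fold, or to or from 0. Of 189 values for the other lists 28 moved, and of 157 values for single genes 10 moved. A gene could cross the 1.5-fold limit without its ratio being called moved, as Lox did after quantile normalization. Dim signals limit Thbs3, Sema3a, Sema3f and Thbs4.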
